A study of Homo sapiens with 4 samples.

Results

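Untreated HCT116 cells differ in the part of their counts that is assigned to transposable elements (TE). The cells with the highest TE share were compared here with those in the lower part of the range. HCT116 is a human colorectal carcinoma line. Of 15289 cells in the series, 3658 were untreated HCT116 cells, and 3639 of these had at least 5000 counts over the gene and TE tables. The TE share of a cell is its TE counts divided by its gene and TE counts. The deposited TE counts are labelled TSS (transcription start site), so they need not cover all RNA with TE sequence. The 181 cells of the top 5% by TE share were compared with the 1819 cells of the bottom 50%. The members were chosen by these measured TE shares, so the difference in TE share between the groups is a description.

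The study profiled single cells of HCT116 and of the lung cancer line H1299, with a 10x Genomics assay that reads polyadenylated RNA from the 5′ end. Each line had 1 library with the solvent DMSO and 1 with decitabine (DAC), a DNA methyltransferase inhibitor, together with the histone deacetylase inhibitor SB939. DAC was present for 72 h and SB939 for 18 h, each at 500 nM, in medium renewed every 24 h. The cells compared here all come from the HCT116 DMSO library, at passage 5 to 10, and received neither inhibitor. With 1 library there is no replicate and no test was made. Intervals in parentheses are 95% intervals for counting error only, and the spread between cultures was not measured. They take each count as an independent molecule, which the sources do not state, and may be too narrow.

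Transposable elements are repeats that were copied around the genome. Alu elements are short repeats transcribed by RNA polymerase III from their own promoter, but many Alu copies are also carried inside transcripts of RNA polymerase II. L1 elements are long autonomous retrotransposons. LTR12, the long terminal repeat of the endogenous retrovirus HERV9, and THE1 and LTR7, the repeats of other retroviral groups, contain promoters that can start transcripts into nearby genes. DNA methylation and the TRIM28 and SETDB1 silencing pathway keep most copies silent in somatic cells.

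The markers of the line were alike in both groups in sum, but not all were present. The 11 epithelial and colorectal markers listed for HCT116 summed to 3448 (3383 to 3514) counts per 1000000 gene counts (CPM) in the top 5% and 3508 (3487 to 3529) in the bottom 50%. S100A6 alone gave 2668 and 2730 CPM of these sums. KRT18, KRT8, KRT19 and EPCAM lay between 77.8 and 238 CPM, CDH1 was at 1.62 and 0.975 CPM, ELF3 at 2.60 and 1.79 CPM, and LGALS4 was at 0 in both groups. Of the 4 H1299 markers CDH2 and G0S2 were at 0, VIM was at 52.9 and 48.2 CPM and ZEB1 at 16.6 and 15.3 CPM, above CDH1. PTPRC and CD3E of 4 haematopoietic markers and COL1A2, DCN and LUM of 5 fibroblast markers were at 0. The haematopoietic list summed to 0 and 0.163 CPM, the endothelial list of 3 to 0 and 0.26 CPM, and the fibroblast list to 12 and 7.93 CPM, nearly all from COL1A1. Depth was alike, with a median of 16103 counts per cell in the top 5% and 15971 in the bottom 50%. Barcodes of 60 cells also occurred in another library, 5 of them in the top 5% and 28 in the bottom 50%.

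TE counts made up 0.918% (0.907 to 0.929) of counts in the top 5% and 0.204% (0.203 to 0.206) in the bottom 50%. Per cell the share ran from 0.596 to 4.76% with a median of 0.717% in the top 5%. It ran from 0.0313 to 0.277% with a median of 0.209% in the bottom 50%. The last cell inside the top 5% had a TE share of 0.5958% and the first outside it 0.5932%, so the limit cuts a continuous range. Only 32 cells exceeded 1% and 5 exceeded 2%. A cell of the top 5% had a median of 125 TE counts, against 32 in the bottom 50%.

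The spread of the TE share was wider than counting error alone would give if each count were an independent molecule. Its standard deviation over the 3639 cells was 0.199 percentage points, against 0.0459 for such counting error at the cells' depths. Whether counts are of unique molecules is not stated, so the value of 0.0459 may be too small. When every cell was thinned to 5000 counts, the medians were 0.76% and 0.2%. Across cells, the Spearman correlation of the TE share with depth was 0.0512 and with the mitochondrial share 0.0293. These correlations share the library and the count total of each cell.

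**Figure D1:**
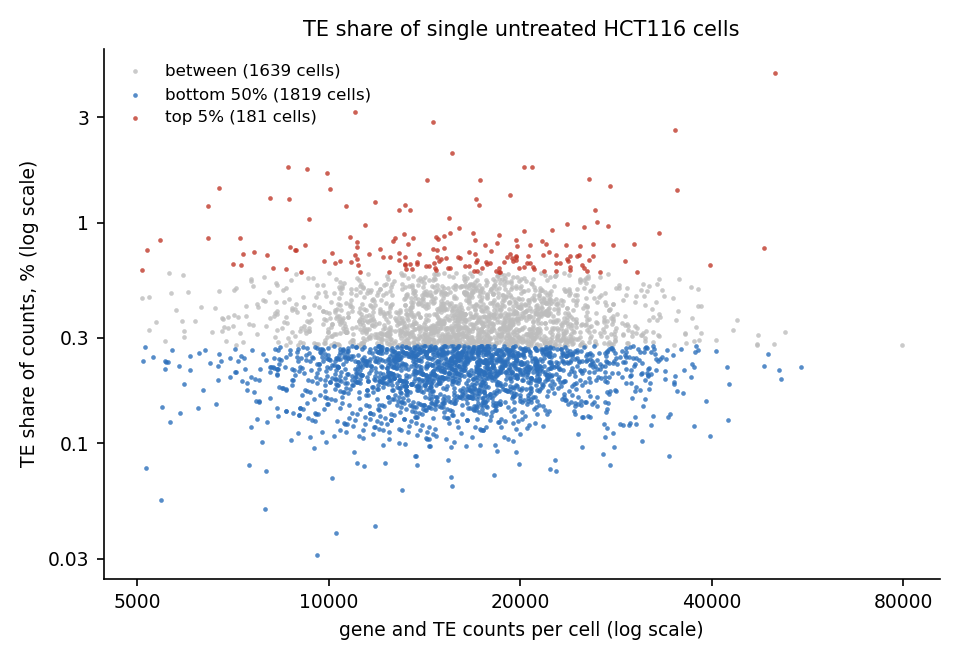
TE share of each of the 3639 cells (percent of gene and TE counts, log scale) against the counts of the cell (log scale). The top 5% (red, 181 cells) lies above 0.595% at all depths, and the bottom 50% (blue, 1819 cells) below 0.277%, with no gap to the cells between them.

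The high TE share extended to loci that had not been used to rank the cells. When cells were ranked on loci with even locus numbers, the loci with odd numbers made up 0.430% of counts in the top 5% and 0.124% in the bottom 50%, a ratio of 3.46 (3.40 to 3.53). Of these top cells, 97.8% lay above the median of the bottom cells, and 133 of the 181 were also in the top 5% by all loci. Ranking on odd numbers and measuring even numbers gave 3.33 (3.26 to 3.40). The same split within families whose names begin with Alu gave 7.43 (7.22 to 7.66), within LTR12 names 8.56 (8.20 to 8.94), and within L1 names 4.61 (4.37 to 4.86). The LTR12 value was not from independent loci, because a locus with an even number and 1 with an odd number both go with DHRS2. Without these 2 loci it was 5.43 (5.09 to 5.78), and 81.8% of the top cells lay above the median of the bottom cells. The cell medians were then 0.0196% and 0.00613%, while the summed shares were 0.0491% and 0.00904%. For all families without these loci the ratios were 3.60 (3.52 to 3.67) ranked on even numbers and 3.47 (3.40 to 3.55) ranked on odd numbers, alternatives added after the data were seen. Whether other loci share transcripts across the split was not tested.

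The shares of Alu, LTR12 and L1 were only weakly correlated across cells. Over the 3639 cells, the Spearman correlation between Alu share and LTR12 share was 0.111, between Alu and L1 0.111, and between L1 and LTR12 -0.0102. A cell has few counts of each kind, which weakens such correlations. Between even and odd loci of the same kind the correlation was 0.464 for Alu, 0.438 for L1 and 0.496 for LTR12. Without the 2 loci that go with DHRS2 the LTR12 value was 0.287. L1 share and the share of all families other than Alu and LTR12 were correlated at 0.727. That second share includes the L1 counts, so nothing is read from this value. All of these shares come from 1 library and use the same total of each cell, so the values are descriptions. In 73 of the 181 cells of the top 5% Alu names held over 50% of the TE counts, in 18 LTR12 names did, in 4 L1 names did, and in 86 no such kind did.

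The TE counts of the groups are given here by family name. The cells were ranked on the sum of these counts, so the levels and parts below describe the cells chosen and nothing is read from which families differ more. Alu names held 50.9% of TE counts in the top 5% and 28.4% in the bottom 50%. Their level was 4677 TE CPM (counts per 1000000 gene and TE counts) against 580.3 TE CPM, a ratio of 8.06 (7.88 to 8.24). LTR12 names held 19.8% and 11.9% of TE counts, and their level was 1819 against 243 TE CPM, a ratio of 7.47 (7.22 to 7.73). Of the 5651 LTR12 counts in the top 5%, 2974 (52.6%) came from 2 loci described below that go with the gene DHRS2, as did 38.2% in the bottom 50%. Without these loci the ratio of LTR12 levels was 5.73 (5.46 to 6.01). The cell with the highest TE share alone held 825 of the 5651 LTR12 counts, and it had 16 DHRS2 counts. It also held 1483 of the 14533 Alu counts in the top 5%. The Alu and LTR12 ratios without this cell are not given here. Of the difference in TE level between the groups, Alu accounted for 57.4%, LTR12 for 22.1% and all other families for 20.5%. In single cells of the top 5% the Alu part of TE counts ran from 3.45 to 95.3% with a median of 40.6%.

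L1 names had 942 and 338 TE CPM, a ratio of 2.79 (2.67 to 2.90), and their part of TE counts was 10.3% against 16.5%. THE1 names, repeats of the MaLR group of retroviral elements, had a ratio of levels of 1.88 (1.76 to 2.0) and held 4.16% against 9.95% of TE counts. For MST names, also of that group, the ratio of levels was 1.48 (1.30 to 1.67). HERV names, the internal parts of endogenous retroviruses, were at 112 and 31.2 TE CPM, a ratio of 3.60 (3.17 to 4.07).

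Among the 34 families with at least 1000 counts, which held 85.5% of TE counts in the top 5% and 74.3% in the bottom 50%, 10 families (29.4%) took a part of TE counts at least 1.5-fold larger in the top 5%, and 14 (41.2%) one that was smaller by the same factor. The cells were ranked on the sum of these families. A family that varies widely between cells therefore gains in the top 5% by the choice of cells. The higher ones were LTR12D and 9 Alu families. AluSg had the highest ratio of parts, 2.55 (2.41 to 2.69), with 872 against 76.3 TE CPM. AluSg4 followed at 2.50 (2.21 to 2.83), LTR12D at 2.26 (2.14 to 2.40) and AluSq at 1.99 (1.73 to 2.29). AluSp was at 1.93 (1.82 to 2.05), AluSx3 at 1.90 (1.75 to 2.07), AluSx4 at 1.89 (1.67 to 2.13), AluSx at 1.71 (1.63 to 1.80), AluSg7 at 1.71 (1.44 to 2.03) and AluSx1 at 1.55 (1.46 to 1.64).

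The lower ones were LTR families, MLT and MER families and 1 L1 family, together with 7SLRNA, the gene family of the signal recognition particle RNA from which Alu derives. LTR33 had the lowest ratio of parts, 0.221 (0.183 to 0.263), and its level did not differ beyond counting error, at 43.4 and 43.8 TE CPM. MLT1F1 was at 0.252 (0.192 to 0.324) and MER61A at 0.283 (0.233 to 0.341). LTR50, L1M5_orf2, MER5A1, MSTA, MLT1K and THE1B lay between 0.30 and 0.378, and THE1D, THE1C, LTR10F, 7SLRNA and LTR7 between 0.458 and 0.580. As levels, 27 of the 34 families were at least 1.5-fold higher in the top 5%, with a median ratio of 3.42, and LTR33 alone had a ratio under 1, at 0.991 (0.824 to 1.18). Leaving out the locus with most counts in each family left 6 families at least 1.5-fold higher as a part of TE counts.

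**Figure D2:**
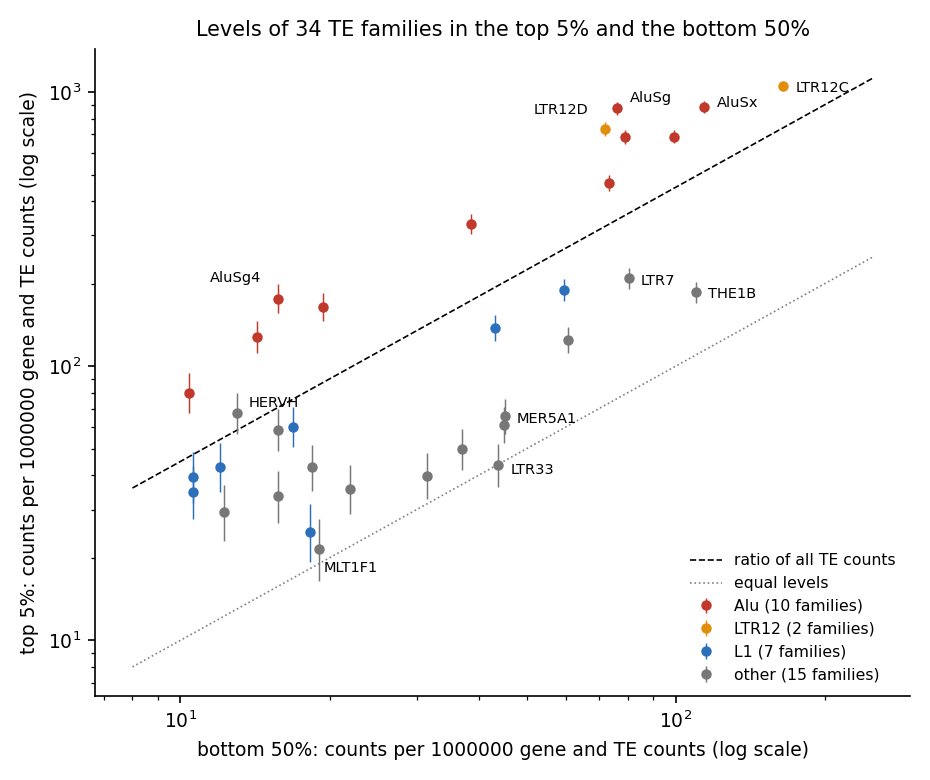
Level of each of 34 TE families in the top 5% against the bottom 50% (counts per 1000000 gene and TE counts, both axes log scale), with vertical 95% counting intervals of the ratio. The 10 Alu families (red) and 2 LTR12 families (orange) lie above the dashed line, the ratio of all TE counts (4.49), while the L1 families (blue) lie below it and LTR33 and MLT1F1 lie near the dotted line of equal levels.

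A cell of the top 5% had counts at a median of 59 loci, and its leading locus held a median of 10.6% of its TE counts. In the bottom 50% these medians were 24 loci and 12.5%. The cells were chosen for more TE counts (medians of 125 and 32), and both measures move with that number, so nothing is read from their difference. Summed over the cells of each group, the 10 loci with most counts held 17.5% of TE counts in the top 5% and 20.2% in the bottom 50%. A locus is named here by its family and the locus number in the deposited table, which gives no coordinates.

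The locus with most counts was LTR12D locus 1701101. It was counted in 112 of the 181 cells of the top 5% (61.9%) and in 381 of the 1819 cells of the bottom 50% (20.9%), at 694 and 68.4 TE CPM, a ratio of 10.2. LTR12C locus 1700968, close to it in number, was counted in 61.3% and 18.5% of cells and had a ratio of levels of 10.7. Both followed DHRS2, a short-chain dehydrogenase/reductase gene, more closely than any other gene feature, with a Pearson r over 3639 cells of 0.976 for the LTR12D locus and 0.606 for the LTR12C locus. In all 1216 cells with counts of the LTR12D locus the DHRS2 count was at least as large, and none of the 2348 cells without DHRS2 had a count of that locus. The LTR12C locus went with DHRS2 less closely. Its counts were matched or exceeded by DHRS2 in 811 of its 1151 cells, and 273 cells without DHRS2 held 533 of its 4264 counts.

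The other 8 leading loci had lower ratios. THE1B locus 830287 was counted in 53.6% of the top 5% and 52.6% of the bottom 50%, with a ratio of levels of 1.31. Its closest gene feature, with an r of 0.998, was the joined name HBE1_HBG2_OR51B5 of the beta-globin region. MER5A1 locus 1038417 and LTR50 locus 6012046, closest to the unnamed transcripts RP11-742N3.1 and RP13-582O9.5, had ratios of 1.22 and 1.32. LTR12C locus 331186 had a ratio of 3.31, LTR7 loci 5293703 and 168814 ratios of 2.89 and 2.42, LTR12C locus 5093379 a ratio of 2.81 and THE1D locus 3361176 a ratio of 1.98. Each of these lay below the ratio of all TE counts, 4.49 (4.43 to 4.56). In every cell with counts of the THE1B, MER5A1 or LTR50 locus (1999, 1557 and 1355 cells), its closest feature had at least as many counts. The same held for the LTR7 loci, whose closest features are abundant. It held in 11 of 1004 cells for LTR12C locus 331186, 1027 of 1057 for locus 5093379 and 1197 of 1326 for the THE1D locus. Whether the locus and gene counts come from the same molecules was not tested.

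Gene levels differed little between the groups apart from DHRS2. Of 2499 genes with at least 50 CPM over all cells, 16 exceeded 1.5-fold towards the top 5% (0.64%), and 0 did so towards the bottom 50% (0%). Ratios lay above 1 for 1259 genes (50.4%) and below 1 for 1240 (49.6%). Of the 16, 6 had over 10% of their counts in the top 5% from 1 cell. These were RP11-304L19.5, SNHG12, HIST1H3B, SNHG1, HIST1H2AG and SFN, where 1 cell held between 11.3 and 25.6%.

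DHRS2 (chromosome 14, 23630115 to 23645639 on the plus strand of GRCh38) had the highest ratio. Per cell it ran from 0 to 104 counts with a median of 7 in the top 5%, and from 0 to 49 with a median of 0 in the bottom 50%. It was counted in 117 of 181 cells (64.6%) and 422 of 1819 cells (23.2%). Its level was 1009 (974 to 1045) CPM against 105 (102 to 109) CPM, 9.57-fold higher (9.10 to 10.05), with a log2 ratio of 3.26. It was 286 CPM in cells from the 50th to the 75th percentile of TE share, 540 CPM up to the 90th and 791 CPM up to the 95th, so the level stepped up over the whole range.

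DHRS2 was not independent of the choice of cells, because counts of the LTR12D locus entered the TE share and went with DHRS2 counts in every cell. When cells were ranked without the 2 LTR12 loci that go with DHRS2, its log2 ratio was 0.80. Without the 10 leading loci it was 0.79. DHRS2 stayed past the 1.5-fold limit in both of these rankings. It did not when cells were ranked on Alu alone, at 387 against 286 CPM and a log2 ratio of 0.44 (0.35 to 0.52). When cells were ranked on L1 alone it lay below even, at 276 against 314 CPM and a log2 ratio of -0.19 (-0.30 to -0.08). Cells with DHRS2, 1291 in number, had a TE share of 0.383%, and 0.314% without the 2 loci. The 2348 cells without DHRS2 had 0.281% and 0.279%. Whether the gene and the locus counts come from the same molecules was not tested.

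**Figure D3:**
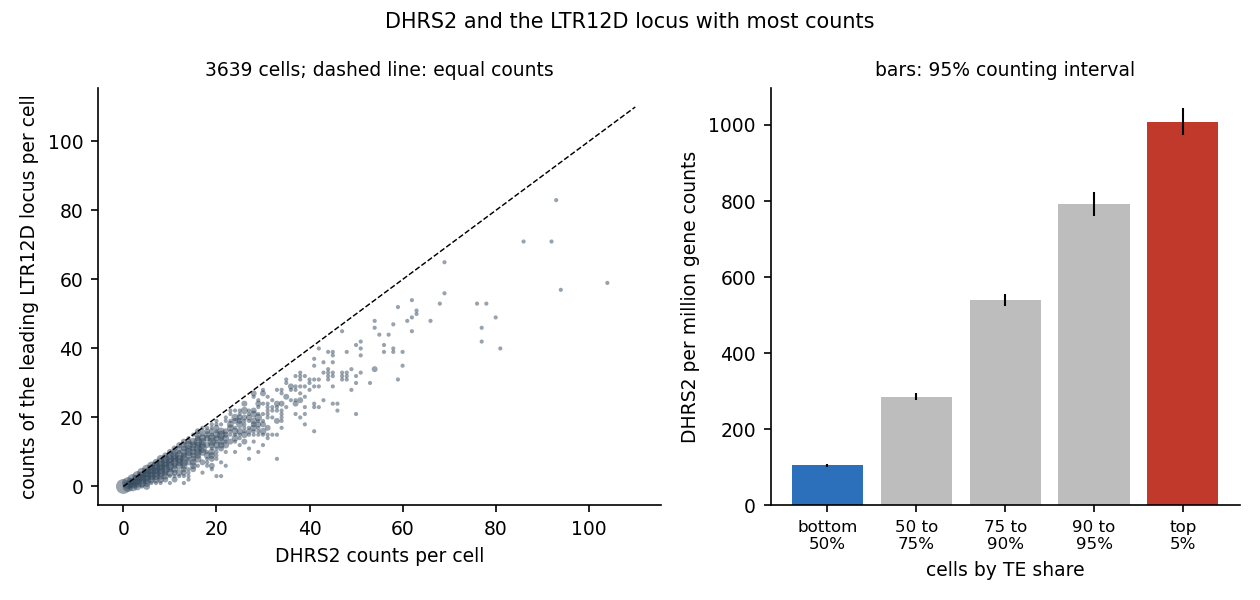
Left, counts of LTR12D locus 1701101 against counts of DHRS2 in each of 3639 cells (larger points stand for more cells), all on or below the dashed line of equal counts. Right, DHRS2 in CPM by TE share of the cells, with 95% counting intervals, from 105 CPM in the bottom 50% to 1009 CPM in the top 5%.

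Histone genes were the largest group among the other genes past the limit. HIST1H1E (chromosome 6, 26156354 to 26157107), which encodes a linker histone, had 426 (403 to 450) CPM in the top 5% and 220.4 (215 to 226) CPM in the bottom 50%, a log2 ratio of 0.95. It was counted in 132 of 181 cells and in 913 of 1819, with a median of 3 counts against 1. HIST1H1C, another linker histone, was at 148 against 92.9 CPM, a log2 ratio of 0.67. HIST1H2AH, which encodes a core histone, was at 112 against 63.0 CPM, a log2 ratio of 0.83. H1F0 on chromosome 22, the linker histone that is made independently of DNA replication, was at 279 (261 to 299) against 161 (157 to 166) CPM, a log2 ratio of 0.80.

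Of 10 genes whose names begin with HIST, a group formed after their values were seen, 9 had a ratio above 1, against 50.4% of all genes, and 5 were past the limit, against 0.64%. Of these 5, HIST1H3B and HIST1H2AG had 25.6 and 11.3% of their counts in the top 5% from 1 cell. The median log2 ratio was 0.58, and 0.002 over all genes tested. HIST1H4C, which encodes histone H4 and is a gene of high level, was at 2572 against 1766 CPM, a log2 ratio of 0.54 that did not reach the limit. HIST1H2BC was the exception, at 43.8 and 54.4 CPM. Histone genes of 1 type are near copies of each other, and how reads shared between copies were counted is not stated, so values of single core histone genes are uncertain. Most of these genes are expressed during S phase as transcripts without a poly(A) tail, so the library, made from polyadenylated RNA, may capture only some of their RNA. Of the 7 measured histone genes of the list with other names, H1F0 alone passed the limit. H2AFX had a log2 ratio of 0.41, H2AFY of 0.06, H2AFZ of -0.03, H2AFV of -0.09, H3F3B of 0.08 and H3F3A of -0.26.

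The other named genes past the limit had lower levels. CEP95, which encodes a centrosomal protein, was at 91.6 (81.2 to 103) against 56.2 (53.5 to 58.9) CPM. GABPB1-AS1, an antisense transcript of a transcription factor gene whose reads cannot be told apart here from those of overlapping genes, was at 108 against 66.6 CPM. SYTL2, a synaptotagmin-like protein of vesicle transport, was at 69.5 against 44.3 CPM, and AREG, the growth factor amphiregulin, at 84.1 against 56.0 CPM. CEP95 stepped from 56.2 through 63.1, 68.8 and 81.2 to 91.6 CPM over the 5 bins of TE share. For AREG the bin from the 90th to the 95th percentile, at 92.3 CPM, was above the top 5%. The same held for HIST1H1E, at 463 against 426 CPM, and for MT-ND6, at 548 against 532 CPM.

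MT-ND6, the protein encoded on the light strand of mitochondrial DNA, was at 532 (507 to 558) against 263 (257 to 269) CPM, a log2 ratio of 1.02. It had a median of 6 counts per cell in the top 5% and 3 in the bottom 50%. Its reads cannot be told apart here from RNA of the opposite strand, since the sources do not state whether counting used strand. All 10 measured protein genes of mitochondrial DNA had a ratio above 1, against 50.4% of all genes, with a median log2 ratio of 0.24. They summed to 27329.5 against 22641.6 CPM. Mitochondrial counts under names joining several genes are not among them. MT-ND5 was at 0.47 and MT-CO1 at 0.40, and MT-ND6 was the 1 gene of the 10 past the limit, against 0.64% of all genes. The mitochondrial rRNAs under the single names MT-RNR1 and MT-RNR2 had a median of -0.12. The joined name MT-RNR2_MT-TV, outside the tested genes, held a smaller part of gene counts in the top 5%. It had 142119 of 3078979 there and 1851297 of 30755538 in the bottom 50%. Of 59 nuclear genes of oxidative phosphorylation, 14 lay above and 45 below a ratio of 1, against 50.4% and 49.6% of all genes, with a median of -0.06, and 0 were past the limit. The mitochondrial share moved both ways, at 16.9% of summed counts in the top 5% and 18.0% in the bottom 50%, but with cell medians of 16.6% and 15.6%. Above 25% mitochondrial counts were 24 of 181 and 211 of 1819 cells. Without those cells the log2 ratio of MT-ND6 was 0.79, and the part of the mitochondrial share in it was not tested.

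**Figure D4:**
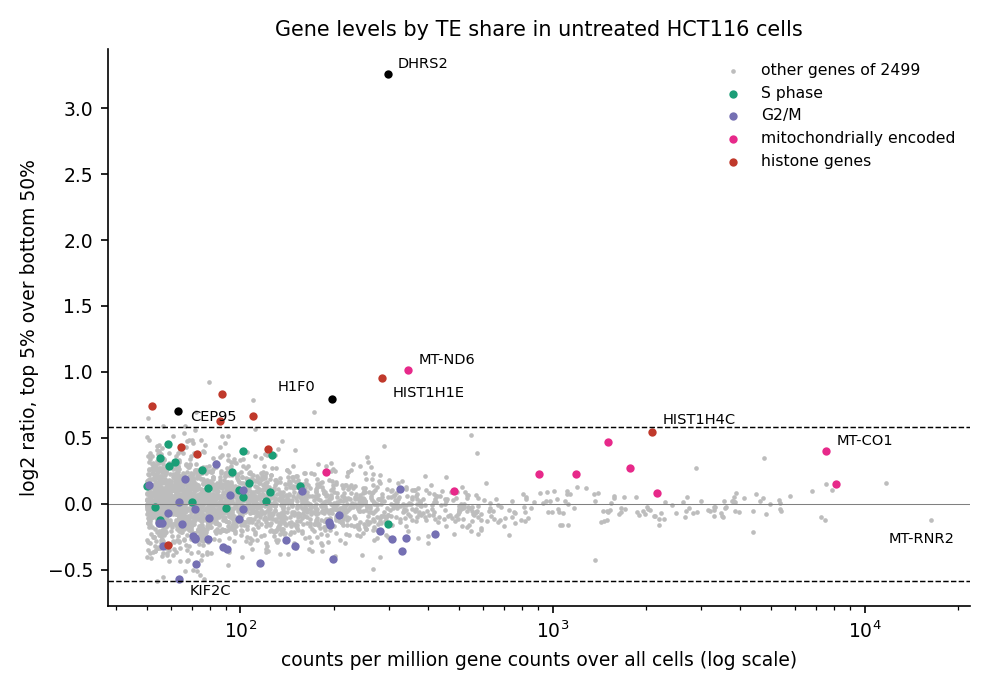
Log2 ratio of gene level in the top 5% over the bottom 50% against the level over all cells (CPM, log scale) for 2499 genes, with dashed lines at 1.5-fold. DHRS2 stands at 3.26, and MT-ND6 and HIST1H1E near 1. Above 0 lie 9 of 10 histone genes (red) and all 10 measured mitochondrially encoded protein genes (pink). Most G2/M genes (violet) lie below 0, and no gene lies below the lower line.

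No cell cycle gene of the lists passed the limit. Of 21 measured S phase genes, 17 had a ratio above 1 and 4 below, against 50.4% and 49.6% of all genes, with a median log2 ratio of 0.13, which was -0.02 when cells were ranked without Alu. CDC6, which loads the replicative helicase, was at 70.8 against 51.7 CPM (log2 ratio 0.45), and CLSPN, the replication checkpoint adaptor claspin, at 146 against 113 CPM (0.37). Of 37 G2/M genes, 8 lay above and 29 below 1, against the same shares, with a median of -0.16, which was 0.11 when cells were ranked without Alu. The mitotic kinesin KIF2C had a log2 ratio of -0.57, the mitotic kinase AURKA of -0.45, the cyclin CCNB1 of -0.45 and UBE2C, of the anaphase-promoting pathway, of -0.42. TYMS, an S phase gene, and CDK1, a G2/M gene, went against their lists at -0.15 and 0.19.

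Of 10 RNAs that stay in the nucleus, 9 had a ratio above 1, against 50.4% of all genes, with a median log2 ratio of 0.17, and 0 were past the limit. NEAT1, the scaffold of paraspeckles, was at 708 (679 to 739) against 494 (487 to 502) CPM, and MALAT1 at 8165 against 7348 CPM. Of 10 host genes of small nucleolar RNAs, 9 had a ratio above 1, with a median of 0.22, but SNHG1 and SNHG12, the members past the limit, had 19.9 and 25% of their counts in the top 5% from 1 cell. Of 8 immediate early genes, 7 had a ratio above 1 and 0 were past the limit, with EGR1 at 154 against 104 CPM and JUN at 86.7 against 62.0 CPM. MYC was the exception, at 137 against 175 CPM. MYC also belonged to the 5 measured Wnt targets and colon stem cell genes, which all had a ratio below 1, against 49.6% of all genes. Their median log2 ratio was -0.14 and 0 were past the limit, with SOX4 at 204 against 287 CPM.

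Genes of TE silencing and of the response to TE RNA were near even. Of 11 measured genes of the TRIM28, SETDB1 and HUSH pathway, 5 lay above and 6 below 1, against 50.4% and 49.6% of all genes, with a median log2 ratio of -0.02 whose sign changed in 8 of 15 other settings. The corepressor TRIM28 was at 189 against 204 CPM, and MPHOSPH8, the chromatin reader of HUSH, at 66.3 against 69.0 CPM. The DNA methyltransferase DNMT1 was at 190.3 (175 to 206) against 195 (191 to 200.5) CPM, and its partner UHRF1 at 124 against 116 CPM. The histone deacetylases HDAC2 and HDAC3 were at 114 against 104 and 74.1 against 68.0 CPM. Of 41 interferon-stimulated genes, 4 were at 50 CPM or more. Of these ISG15 and EIF2AK2 lay above 1, at 75.3 against 59.9 and 72.1 against 66.7 CPM, and IFITM2 and IFITM3 below, at 63.0 against 75.9 and 181 against 208 CPM. The whole list summed to 649 and 653 CPM.

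Differences between chromosomes were small, though some exceeded counting error. Summed gene counts per chromosome had log2 ratios from -0.081 (-0.094 to -0.068) on chromosome 22 to 0.083 (0.073 to 0.093) on chromosome 15. Of all gene counts, 90.5% were matched to a chromosome. Ribosomal protein genes, 79 of them measured, had a median log2 ratio of -0.04, and 26 proteasome genes of -0.10. The genes whose level followed the TE share most closely over the 3639 cells, each thinned to 5000 counts, were DHRS2 with a Spearman correlation of 0.31, MT-CO1 with 0.22, MT-ND6 with 0.20, MT-ND5 with 0.19 and HIST1H1E with 0.19. HIST1H4C, MT-ATP8, HIST1H2AH, MT-ND2 and HIST1H1C followed with 0.15 to 0.12. These are weak correlations in sparse counts within 1 library.

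The cells were also ranked on 1 kind of TE at a time, a comparison added after the data were seen. The top 5% by Alu share held 96 of the 181 cells of the top 5% by all TE, the top 5% by LTR12 share 65, and the top 5% by L1 share 48. The rankings share cells and some genes past the limit, among them HIST1H4C in the Alu and LTR12 rankings, and the difference between rankings was not tested.

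In cells high in Alu, 3 S phase genes were past the limit upwards and 7 G2/M genes downwards. In this ranking 9 genes (0.36%) passed 1.5-fold upwards and 12 (0.48%) downwards. Of the S phase genes 20 of 21 had a ratio above 1, as did 57.8% of all genes, with a median log2 ratio of 0.29. Past the limit were the uracil-DNA glycosylase UNG at 85.0 against 46.9 CPM, CLSPN at 173 against 110 CPM and ATAD2 at 141 against 91.1 CPM. Outside the list, ORC6, a subunit of the origin recognition complex, was at 79.8 against 52.4 CPM, and HIST1H4C at 2730.4 against 1673 CPM. AREG was also past the limit, at 98.5 against 54.5 CPM and a log2 ratio of 0.85. Of the 10 HIST genes 4 were past the limit, with a median log2 ratio of 0.40 over the 10. In 3 of these 4, a single cell held over 10% of the top cells' counts. Of the G2/M genes 35 of 37 had a ratio below 1, as did 42.2% of all genes, with a median of -0.37, and 7 were past the limit. Among these AURKA was at 50.3 against 84.3 CPM, CCNB1 at 82.5 against 137 CPM, UBE2C at 145 against 231 CPM and PLK1 at 72.4 against 111 CPM. Outside the list, the spindle protein gene KNSTRN was at 42.3 against 84.0 CPM, and FAM64A at 36.8 against 66.7 CPM. Median depth was 16880 against 16212 counts and the median mitochondrial share 15.1 against 15.9%. Ranked within 10 bins of depth, the medians were 0.29 for S phase and -0.41 for G2/M.

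In cells high in LTR12, DHRS2 was at 1983 against 12 CPM, which the choice of cells largely sets. In this ranking 15 genes (0.6%) passed 1.5-fold upwards and 2 (0.08%) downwards. Of the 10 HIST genes 9 were past the limit, with a median log2 ratio of 0.80, and HIST1H1E was the exception at 0.40. For 7 of these 9 genes 1 cell held over 10% of the counts in the top cells, from 13.3% for HIST1H2AH to 37.5% for HIST1H2BC, though not the same cell for all. The other two were HIST1H4C, at 2598 against 1693 CPM, and HIST1H1C, at 136 against 85.6 CPM. H2AFX, the histone variant phosphorylated at DNA breaks, was at 238 against 132 CPM. RMRP, the RNA of a mitochondrial and nucleolar RNase, was at 81.8 against 52.2 CPM, and SERPINH1, a collagen chaperone, at 75.2 against 49.9 CPM. The genes past the limit downwards were SOX4, at 196 against 297 CPM, and the calcium-binding protein gene S100A16, at 54.2 against 81.6 CPM. The median depth was 17034 against 15742 counts. Within 10 bins of depth 13 genes passed upwards and 0 downwards, with log2 ratios of -0.55 for SOX4, -0.43 for S100A16, 0.37 for RMRP and 0.53 for SERPINH1, all short of the limit, while H2AFX stayed past it at 0.72. Without cells above 25% mitochondrial counts the 1 gene past it downwards was MBTPS1, and SOX4, S100A16 and SERPINH1 again fell short, at -0.58, -0.57 and 0.57. Of the 37 G2/M genes 32 had a ratio above 1, as did 57% of all genes, and 5 below, as did 43%, with a median of 0.19. MT-ND6 was near even in this ranking, at 341 against 343 CPM.

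In cells high in L1, 3 of the 10 protein genes of mitochondrial DNA and 2 of the 10 measured genes of a list of linker and polyadenylated histones were past the limit upwards. In this ranking 57 genes (2.28%) passed 1.5-fold upwards and 9 (0.36%) downwards. Within 10 bins of depth these were 47 and 2, and without cells above 25% mitochondrial counts 38 and 6. The mitochondrial list had 10 of 10 genes with a ratio above 1, as did 38.9% of all genes, and a median log2 ratio of 0.37. Of the histone list 4 lay above and 6 below 1, with a median of -0.17. Of the 10 HIST genes, 8 lay above 1 and 4 were past the limit, with a median of 0.39, and 1 cell held over 10% of the top cells' counts for 2 of these 4. MT-ND6 was at 1071 against 227 CPM, a log2 ratio of 2.24, MT-ND5 at 3260.4 against 1220.1 CPM and MT-CO1 at 13395 against 6700 CPM. Of the histone list, HIST1H1E was at 739.9 against 260.4 CPM and H1F0 at 362 against 169 CPM, past the limit. HIST1H1C, at 160 against 108 CPM, did not reach it. ABI2, a regulator of actin assembly, was at 115 against 46.4 CPM, and CACUL1 at 142 against 66.1 CPM. Of 59 nuclear oxidative phosphorylation genes 3 had a ratio above 1, as did 38.9% of all genes, and 56 below, as did 61.1%, with a median of -0.25. Of the proteasome genes 23 of 26 lay below 1, also with a median of -0.25. The median depth of these cells was 13437 against 16289 counts and their mitochondrial share 20.8 against 15.6%. Without cells above 25% mitochondrial counts, the log2 ratio was 1.94 for MT-ND6, 1.5 for HIST1H1E and 1.06 for H1F0. Within 10 bins of depth it was 2.07, 1.39 and 1.03.

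Ranking on all families outside Alu and LTR12 gave 36 genes (1.44%) past 1.5-fold upwards and 12 (0.48%) downwards. Within 10 bins of depth these were 29 and 5, and without cells above 25% mitochondrial counts 26 and 6. MT-ND6 had a log2 ratio of 1.97, HIST1H1E of 1.18 and H1F0 of 0.95, while 3 of 21 S phase genes had a ratio above 1 (36.5% of all genes) and 18 below (63.5%), with a median of -0.17. The mitochondrial share was again higher in the top cells, at 20.1 against 15.5%.

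**Figure D5:**
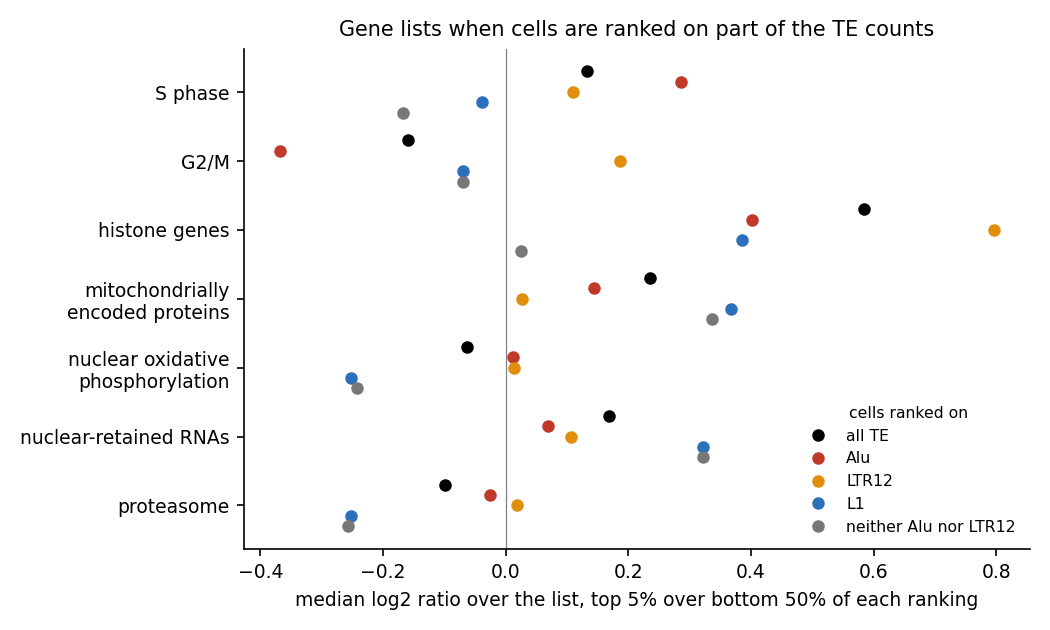
Median log2 ratio of 7 gene lists (top 5% over bottom 50%) when cells were ranked on all TE counts or on 1 kind of TE. G2/M genes stand at -0.37 in the Alu ranking and 0.19 in the LTR12 ranking, histone genes at 0.80 in the LTR12 ranking, and nuclear oxidative phosphorylation and proteasome genes at -0.25 in the L1 ranking.

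The cell with the highest TE share stood apart from the rest. It had 50287 counts, more than 99.8% of cells, of which 4.76% were TE counts, with 1483 counts at 622 Alu loci and 825 LTR12 counts. Its barcode also occurred in another library, and it held 8 of the 14 counts in the top 5% of 8 genes that are near 0 with DMSO and high with the inhibitors, all 8 from RP11-206M11.7. Of the H1299 markers it had 1 count. Without this cell the ratio of TE shares was 4.18 and the log2 ratio of DHRS2 3.28.

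The same rule was applied to the other untreated library and to the treated HCT116 library, each again 1 library. In H1299 DMSO, 177 cells with a median TE share of 0.425% were compared with 1774 cells at 0.143%. DHRS2 had 10 and 51 counts there, or 3.78 and 1.55 CPM. HIST1H1E had a log2 ratio of 1.43, H1F0 of 1.57, CEP95 of 0.95, SYTL2 of 1.30, GABPB1-AS1 of 0.45 and MT-ND6 of 2.27, beside a median mitochondrial share of 12 against 8.13% and a depth of 14072 against 17646.5 counts. HIST1H4C had a log2 ratio of -0.22 there, HIST1H1C of 0.36 and the 8 measured HIST genes a median of 0.01. The medians of the S phase and G2/M lists were -0.08 and -0.47. In HCT116 with DAC and SB939, 163 cells with a median TE share of 16.5% were compared with 1639 cells at 3.0%. DHRS2 was high in both groups, at 2408 and 1988 CPM, H1F0 was at 1015 against 414 CPM and HIST1H1C at 475 against 139 CPM, beside a depth of 8391 against 10363 counts and a mitochondrial share of 22.5 against 16.6%. HIST1H1E had a log2 ratio of 0.60 there, HIST1H2AH of 0.90 and MT-ND6 of 1.24, and the 7 measured HIST genes a median of 1.44. HIST1H4C was near even, at -0.01. CEP95 was at 0.22 (-0.12 to 0.55), GABPB1-AS1 at 0.18 (-0.26 to 0.59) and SYTL2 at -0.46 (-1.05 to 0.08), none beyond counting error. AREG was at 0.30, with 0 counts in H1299 DMSO, and the S phase and G2/M lists had medians of -0.12 and -0.56. Of 2117 genes in this library, 109 (5.15%) passed 1.5-fold upwards and 406 (19.2%) downwards, and in H1299 DMSO 60 (2.21%) and 39 (1.43%) of 2719 did. The difference between libraries was not tested.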

How the data were processed

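Single cells of 4 libraries were sequenced with 10x Genomics 5′ chemistry, per the labels. The authors deposited whole-number counts per feature and cell, in 1 gene and 1 TE table. CASAVA, STAR and GRCh38 (hg38) are named in the submitters' processing notes. Not given in the sources used here are the counting tool, the annotation, the cell filter, the treatment of reads that match several TE copies or near-identical genes, the use of strand and whether counts are of unique molecules. Also not given is whether 1 molecule can be counted in both tables. Cells were assigned to libraries by their names. Features of 1 gene name were summed. Names joining several genes held 17.3% of gene counts, and stayed in totals but not among tested genes. TE counts covered 40689 loci of 312 families. Every listed combination of family and number had at least 19 counts, so rarer ones may be unlisted. Their meaning is not stated.

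Genes were compared as counts per 1000000 gene counts (CPM), and families as parts of TE counts or per 1000000 gene and TE counts. Intervals are exact Poisson, Clopper-Pearson or conditional binomial (scipy 1.17.1, numpy 2.4.6, pandas 2.3.3). Totals per group were 3107506 and 30818521 counts. The scripts were tested on simulated data. Named genes are the 12 highest and 12 lowest past 1.5-fold at 50 CPM or more, without MT-, RPL and RPS names and without genes of which 1 cell held over 10% of the top group's counts, together with list members, the 10 leading loci, families past 1.5-fold and the 10 genes closest to the TE share. Doublets were not called, but 1 alternative leaves out the 5% deepest cells. Gene positions are from GENCODE 29. The members, the gene lists and the added rankings were chosen with earlier results of these data known.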

Additional observations from a re-analysis of the deposited data

How the results depend on the processing

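The 16 higher genes numbered 10 with the top 10% of cells, 2 at 2-fold, 162 at 10 CPM or more and 3 at 200 CPM or more. Counts at 10 and 200 CPM, here and below, come from a different number of tested genes. That number is not given here, so these counts cannot be set against those at 50 CPM. The 0 lower genes numbered 21 after thinning, 10 with a TE share over counts without mitochondrial and ribosomal protein genes, 90 at 10 CPM, 3 with the mean over cells, and 4 both with the bottom 25% of cells and in CPM without mitochondrial and ribosomal genes. They numbered 2 without cells above 25% mitochondrial counts and 1 within 10 bins of depth, at a minimum of 10000 counts, without the 5% deepest cells, without Alu, without the 2 LTR12 loci and without the highest cell. The 10 higher TE families numbered 4 without Alu, 3 at 2-fold, 6 without leading loci and 27 as a share of all counts, where 0 were lower.

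The TE share ratio of 4.49 was 4.76 after thinning, 4.38 at a minimum of 10000 counts and without cells above 25% mitochondrial counts, 4.09 without the 5% deepest cells, 4.13 without the 10 leading loci, 3.36 without Alu, 3.56 with the top 10%, 5.57 with the bottom 25% and 4.32 as a mean over cells. Among alternatives added after the data were seen it was 4.23 without the 2 LTR12 loci, 4.18 without the highest cell and 4.17 without shared barcodes. The ratio over unused loci was 3.46 on even and 3.33 on odd ranking.

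The summed mitochondrial share differed by -1.09 points. This was 0.415 after thinning, -1.36 within 10 bins of depth, -1.75 at a minimum of 10000 counts, 0.384 without cells above 25%, -0.117 without the 5% deepest cells and 1.29 without mitochondrial and ribosomal genes in the share. It was -0.899 without the 10 loci, -0.446 without Alu, -1.92 with the bottom 25%, 0.623 as a mean over cells, -0.964 without the 2 LTR12 loci, -0.908 without the highest cell and -0.938 without shared barcodes. The cause of these changes was not tested.

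Over 15 settings of the ranking, HIST1H1E was past 1.5-fold in 15, HIST1H2AH, H1F0 and CEP95 in 14, GABPB1-AS1 in 13, HIST1H1C in 10, and SYTL2 and AREG in 9. These settings leave out the rankings on Alu, LTR12 or L1 alone. In the Alu ranking HIST1H2AH and AREG were past the limit, with log2 ratios of 0.62 and 0.85. The others fell short there: HIST1H1E at 0.40, HIST1H1C 0.36, CEP95 0.26, H1F0 0.07, GABPB1-AS1 -0.03 and SYTL2 -0.10. In the LTR12 ranking CEP95 was at 0.13 and H1F0 at 0.48, and in the L1 ranking at 0.98 and 1.10. No paired analysis was possible because each group of the study is 1 library. One culture, 181 top cells and a median of 32 TE counts per cell in the bottom 50% limit what can be told apart. Genes under 50 CPM over all cells were described only as markers, in list sums, in the highest cell, in the counts at 10 CPM or in other libraries.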
